A study of Mus musculus with 12 samples.

Results

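The hepatokines described here are 9 genes for proteins that the liver secretes to act on other tissues or on liver cells themselves: Fgf21, the angiopoietin-like genes Angptl4, Angptl6 and Angptl8, Gdf15, Lect2, the activin subunit genes Inhbe and Inhba, and the activin antagonist gene Fst. They were chosen by name, and all 9 were found among the 55367 gene symbols of the table, each on a single row. The study measured liver RNA by sequencing in 6 libraries from mice with severe acute pancreatitis (SAP) and 6 from control mice. All mice were wild type Balb/c and 6 weeks old. The SAP mice had been given caerulein, a peptide that drives the exocrine pancreas to excess secretion, while the control label names no agent, dose or time. The series' design text speaks of a pair of mouse models, but the labels give a single strain and treatment, and they do not say whether all SAP mice belong to the same model.

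FGF21 is a hormone made by the liver under fasting, amino acid shortage and cell stress, and it acts through FGF receptors paired with beta-klotho (Klb). ANGPTL4 and ANGPTL8 take part in the control of lipoprotein lipase, the enzyme that releases fatty acids from circulating triglyceride. GDF15 is a stress hormone that lowers appetite through its receptor GFRAL in the hindbrain. Activins are dimers of inhibin beta subunits that signal through activin receptors and SMAD proteins, and follistatin (Fst) binds and neutralises them. Inhbe and Inhbc are subunit genes expressed mainly in hepatocytes.

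Levels are in TPM (transcript abundance scaled for transcript length and to a fixed library total), and sequencing depth is unknown because the deposited values carry none. The 9 hepatocyte markers, Alb among them, summed to between 53500 and 61310 TPM in SAP and between 83930 and 95220 TPM in controls. Alb alone averaged 27670 TPM in SAP and 65030 TPM in controls. The markers did not move as 1: 5 were lower in SAP, 2 higher (Apoa1 and Fgb) and 2 not past the threshold (Apob and Hnf4a). The count of higher ones ran from 1 to 4 under other processing. Fgb (12450 TPM in SAP and 2203 TPM in controls) is also among the acute-phase genes. The 10 pancreatic acinar markers summed to between 0.45 and 1.35 TPM in SAP and between 0.54 and 14.3 TPM in controls. Acute-phase transcripts (24 of 24 listed genes higher in SAP) summed to between 199200 and 336600 TPM in SAP and between 24200 and 29030 TPM in controls, which takes room from all other genes within a fixed total. The 10 neutrophil markers summed to between 37.2 and 112 TPM in SAP and between 4.95 and 19.6 TPM in controls (3 of 4 tested genes higher). Most of that sum was S100a9 (46.8 TPM in SAP and 4.40 TPM in controls) and S100a8 (25.8 and 2.54 TPM). Retnlg, also tested and higher, reached at most 0.90 TPM in controls and passed the filter only through the SAP libraries. Below the filter, Camp was lower in SAP (0.088 and 0.373 TPM) and Ngp similar (0.662 and 0.600 TPM). In 5 libraries (SAP 11, SAP 13, SAP 14, SAP 15 and control 5) the nuclear RNA Xist was at 17.1 TPM or lower, against 49.1 TPM or more in the other 7. This split is unequal between the groups, so member values are also given within it. In bulk tissue, fewer cells of a type and less RNA per cell cannot be told apart.

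In SAP livers Inhbe, Fgf21 and Inhba were higher, Angptl4, Angptl6 and Gdf15 were lower, and Angptl8 and Lect2 did not pass the test. These 8 members were among the 11344 genes that reached 1 TPM in 6 or more libraries; Fst reached 1 TPM in only 2 libraries and was tested in a fit with no such filter. The test was limma on log2(TPM + 1) with Benjamini-Hochberg adjustment over all genes at 0.05, and it called 44.5% of all genes tested, 19.5% higher and 25.0% lower in SAP. Of the 8 members tested, 3 were higher, 3 lower and 2 not past the threshold, with a median log2 difference of 0.13 against -0.03 over all genes. Values of SAP and control libraries did not overlap for 4 of the 8 (Inhbe, Angptl4, Angptl6 and Gdf15), against 25.6% of all genes tested.

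**Figure D1:**
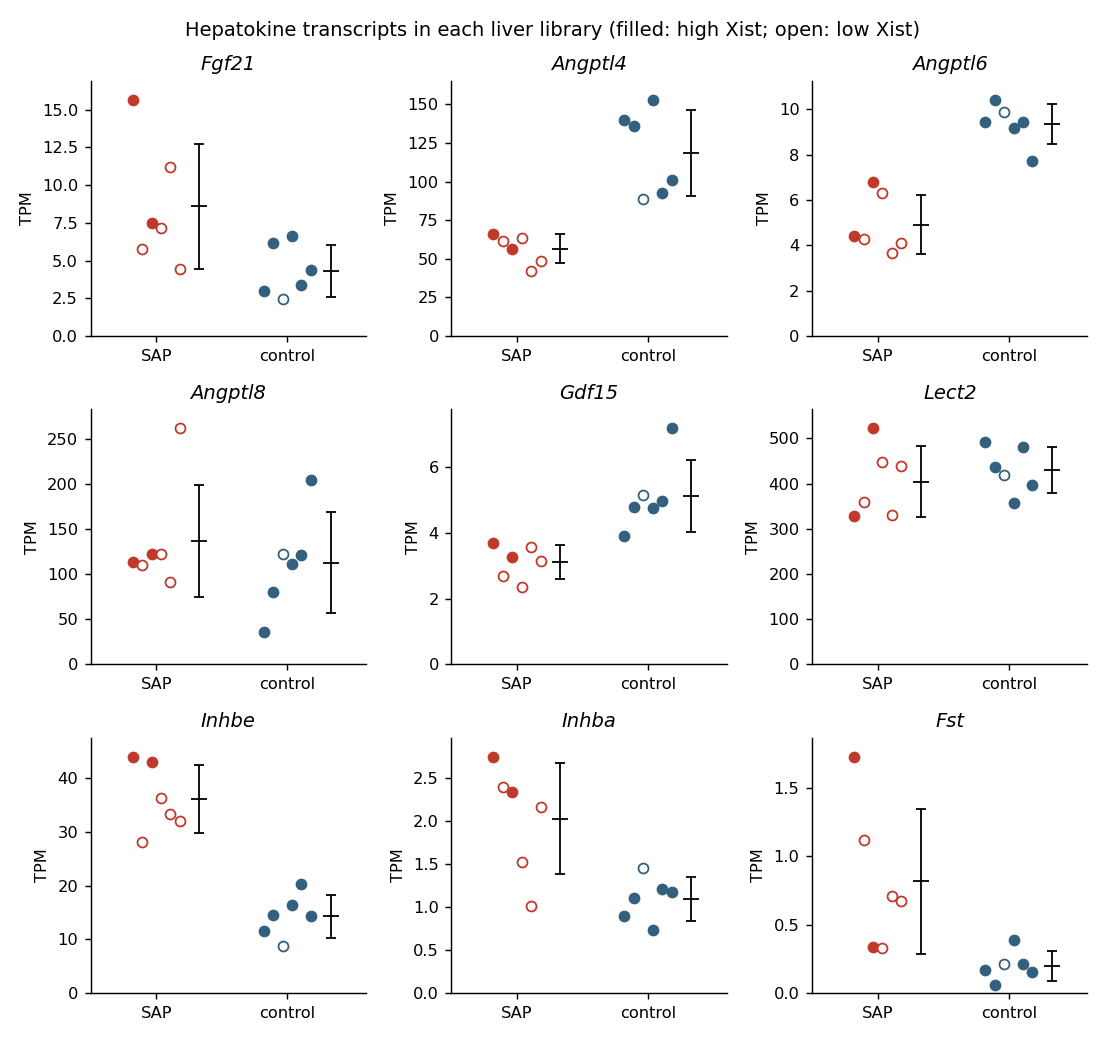
TPM of each of the 9 hepatokine genes in 6 SAP and 6 control liver libraries, 1 point per library, with the mean and SD beside each group and open points for the 5 libraries low in Xist. Inhbe lies above, and Angptl4, Angptl6 and Gdf15 lie below the control range in all 6 SAP libraries.

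**Figure D2:**
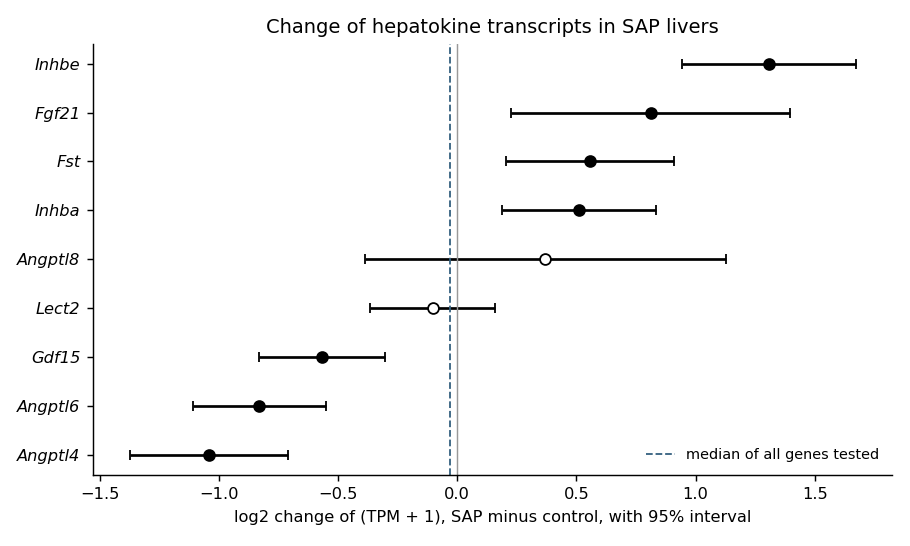
Log2 change of TPM + 1, SAP minus control, with its 95% confidence interval for each hepatokine gene, filled where past an adjusted p of 0.05. The changes run from -1.04 for Angptl4 to 1.31 for Inhbe, and the dashed line marks the median of all genes tested at -0.03; Fst comes from the fit with no filter.

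Fgf21 was between 4.41 and 15.65 TPM in SAP livers, with a median of 7.30, against 2.45 to 6.63 TPM in control livers, with a median of 3.88. SAP 10 (15.65 TPM) and SAP 14 (11.2 TPM) were the highest libraries, 4 of 6 SAP values lay above every control, and the groups overlapped. The log2 change was 0.81 ± 0.27 (SE, 95% interval 0.23 to 1.39; limma adjusted p = 0.0262). The call was lost without SAP 10, SAP 14, control 3, control 5 or control 7 (adjusted p between 0.0521 and 0.0574), and in the fit with no filter (adjusted p = 0.0691). A fit that also held the Xist split gave 1.13 (limma adjusted p = 0.00584).

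The bases upstream of a gene's start are shown for the 3 members in which a letter match to the C/EBP-ATF response element (CARE), the kind of element that the stress factor ATF4 binds with C/EBP partners, was found. The element was searched as TGATGNAA on both strands in the 250 bases before each RefSeq start, and it occurs in 3.45% of all 32851 such windows of the RefSeq promoter table (GRCm38.p6). Windows were available for 7 of the 9 members, not for Angptl4 and Fst. Those below lie at chr10:127351849-127352098 (minus strand) for Inhbe, chr7:45615491-45615740 (minus strand) for Fgf21 and chr9:21835260-21835509 (plus strand) for Angptl8. Each is written in the direction of transcription, 5′ to 3′, and capitals mark the match.
Inhbe: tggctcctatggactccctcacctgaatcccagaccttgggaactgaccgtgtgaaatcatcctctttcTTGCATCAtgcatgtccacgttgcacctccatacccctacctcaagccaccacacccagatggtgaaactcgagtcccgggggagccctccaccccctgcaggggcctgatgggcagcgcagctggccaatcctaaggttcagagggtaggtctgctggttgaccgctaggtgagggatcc
Fgf21: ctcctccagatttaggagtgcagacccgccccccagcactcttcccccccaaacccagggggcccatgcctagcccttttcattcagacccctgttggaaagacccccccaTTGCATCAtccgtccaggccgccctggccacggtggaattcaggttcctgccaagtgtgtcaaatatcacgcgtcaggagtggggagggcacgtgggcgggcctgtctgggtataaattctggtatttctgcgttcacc
Angptl8: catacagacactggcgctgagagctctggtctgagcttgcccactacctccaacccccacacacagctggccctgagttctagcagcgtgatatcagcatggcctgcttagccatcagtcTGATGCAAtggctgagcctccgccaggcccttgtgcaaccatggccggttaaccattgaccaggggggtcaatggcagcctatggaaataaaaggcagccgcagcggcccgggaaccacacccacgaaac
The match begins 181 bases before the start in Inhbe, 139 in Fgf21 and 130 in Angptl8. It reads TGATGCAA along the Angptl8 strand and TTGCATCA, the same letters on the opposite strand, in Inhbe and Fgf21. The E-box CACGTG, found in 6.02% of all windows, was present in Fgf21, 50 bases before the start, and in 1 of the windows of Gdf15. No window of a member held the STAT motif TTCNNNGAA (7.02% of all windows), the sterol response element TCACNCCAC (1.05%), the direct repeat with a single-base spacer, DR1 (0.0335%), or the palindromic glucocorticoid response element, GRE (0.00913%). A letter match is no measure of binding. GENCODE M21 begins Inhbe further upstream, at 127354411, than the RefSeq start used for this window.

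Among genes of the integrated stress response, in which ATF4 and DDIT3 (CHOP) drive transcription, 9 of 14 tested were higher in SAP, 1 was lower and 4 were not past the threshold. Their median log2 difference was 0.48, against -0.03 over all genes. Psat1, a serine synthesis enzyme, averaged 6.57 ± 1.46 TPM in SAP and 0.337 ± 0.164 TPM in controls (SD, n = 6 each). Asns, asparagine synthetase, averaged 5.93 ± 3.20 TPM in SAP and 0.513 ± 0.322 TPM in controls, and Nupr1, a stress-induced nuclear protein gene, 4.87 ± 2.87 TPM in SAP and 0.857 ± 0.381 TPM in controls. The log2 changes were 2.49 for Psat1, 2.07 for Asns and 1.55 for Nupr1 (limma adjusted p = 1.70e-08, 9.04e-05 and 3.89e-04). In controls Psat1 reached at most 0.62 TPM and Asns at most 0.92 TPM. Both therefore passed the filter only through the SAP libraries, where they were high, so their calls add no separate support to the count. Ddit3 rose by 1.31, Atf4 rose by 0.35, and Trib3, a pseudokinase induced by both, fell by 0.85. With a mean of at least 5 TPM as the filter, 8 of these genes were tested and 4 were higher. The count of lower genes was 2 of 14 tested without control 7 and 2 of 12 tested without SAP 14.

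PPAR-alpha, the fatty acid receptor that drives Fgf21 and Angptl4 in fasting, is encoded by Ppara, which was at 44.1 ± 14.3 TPM in SAP and 42.6 ± 9.61 TPM in controls (SD, n = 6 each; log2 difference 0.00, 95% interval -0.49 to 0.49). Of the 16 genes listed for the receptor, its partners and its targets, 9 were lower, 3 higher and 4 not past the threshold, with a median log2 difference of -0.71. Acot1 (-4.11), a thioesterase gene, Cyp4a14 (-2.37), a fatty acid omega-hydroxylase gene, and Ehhadh (-2.26), of peroxisomal oxidation, had the largest decreases (limma adjusted p = 3.86e-09, 4.03e-07 and 5.82e-08). Cpt1a, which admits fatty acids to mitochondria, rose by 0.34 and the pantetheinase gene Vnn1 by 1.69. The count of higher genes was 5 with TPM rescaled without the acute-phase genes and 1 with no filter, without SAP 11 or without control 8. Over all genes, that rescaling called 6106 of 11643 higher.

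Of the receptor components, Klb was lower in SAP, at 6.11 ± 2.11 TPM in SAP and 9.70 ± 0.511 TPM in controls (SD, n = 6 each; log2 change -0.65, limma adjusted p = 0.00794). Fgfr3 was lower as well (-0.70, adjusted p = 0.0221). Fgfr2 had the highest level of the FGF receptor genes, at 164 ± 96.1 TPM in SAP and 202 ± 89.4 TPM in controls. Its log2 difference (-0.35) was not past the threshold. Fgfr4 was at 16.7 ± 3.09 TPM in SAP and 16.15 ± 2.37 TPM in controls (log2 difference 0.04, 95% interval -0.23 to 0.31). Fgfr1 and Fap, a protease that cleaves FGF21, were below the filter at 1.29 TPM or less in every library. The calls of Klb and Fgfr3 were lost in a fit that also held the Xist split (limma adjusted p = 0.0545 and 0.143). In the high Xist libraries alone Klb changed by -0.30 and Fgfr3 by -0.19, neither past the threshold (limma adjusted p = 0.155 and 0.540). With no filter Fgfr3 missed the threshold as well (limma adjusted p = 0.0586). Both calls were also lost with TPM rescaled without the acute-phase genes (adjusted p = 0.0885 and 0.129). That rescaling moved the median of all genes by 0.33, to 0.30, and gave -0.32 for Klb and -0.40 for Fgfr3.

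Angptl4 fell to between 42.2 and 66.1 TPM in SAP livers, with a median of 59.0, against 88.55 to 153 TPM in control livers, with a median of 118. All 6 SAP values lay below the lowest control. The log2 change was -1.04 ± 0.15 (SE, 95% interval -1.37 to -0.71; limma adjusted p = 1.14e-04). Among the controls, 3, 4 and 6 were at 136 TPM or more and 5, 7 and 8 at 101 TPM or less.

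Angptl8, a gene that insulin and feeding induce, was between 91.7 and 261 TPM in SAP, with a median of 118, against 35.4 to 205 TPM in controls, with a median of 116. The medians were close, the groups overlapped, and SAP 15 stood apart from the other SAP libraries at 261 TPM. Control 8 was the highest control (205 TPM) and control 3 the lowest (35.4 TPM). The log2 difference was 0.37 ± 0.35 (SE, 95% interval -0.39 to 1.13; limma adjusted p = 0.423), an interval that runs from a fall of 0.39 to a rise of 1.13. In GENCODE M21 on GRCm38 Angptl8 (chromosome 9, 21835510 to 21837347, plus strand) lies within Dock6 on the minus strand, with 0 of its 865 exon bases shared with Dock6 exons. Dock6 was at 1.71 to 5.30 TPM in SAP and 7.73 to 12.3 TPM in controls.

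The balance of Angptl4 and Angptl8 differed between the groups on average, with overlapping ranges. The log2 ratio of Angptl4 to Angptl8, on TPM + 1, averaged -1.19 ± 0.61 in SAP and 0.22 ± 1.07 in controls (SD, n = 6 each; exact two-sided permutation test, p = 0.00866; adjusted p = 0.0173 over the 6 within-library quantities tested). The ratio ran from -2.41 to -0.77 in SAP and from -1.01 to 1.95 in controls. Without SAP 14 and control 5 the difference missed the threshold (-1.56, exact permutation test, adjusted p = 0.0635). Angptl8 was the higher of the pair in all 6 SAP libraries and in controls 5, 7 and 8, and Angptl4 in controls 3, 4 and 6.

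Of 11 genes listed for lipoprotein lipase and triglyceride handling, 3 were higher, 5 lower and 3 not past the threshold (median log2 difference -0.43). Lipc, hepatic lipase, averaged 30.2 ± 10.2 TPM in SAP and 187 ± 29.4 TPM in controls (SD, n = 6 each; log2 change -2.63, limma adjusted p = 2.05e-07). Lpl itself was low in both groups, at 0.99 to 2.11 TPM in SAP and 1.36 to 5.65 TPM in controls (-0.94, adjusted p = 0.00520). Apoa4, an apolipoprotein gene, rose by 1.61, and Apoc2, which encodes the activator of lipoprotein lipase, rose by 0.88. Apoc3, which encodes an inhibitor of triglyceride clearance, fell by 0.97, and Vldlr, a lipoprotein receptor gene, by 1.56. The count of higher genes was 5 with TPM rescaled without the acute-phase genes, beside 6106 of 11643 among all genes. That of lower genes was 3 with a mean of at least 5 TPM as the filter.

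Sugar- and insulin-responsive genes of fat synthesis, the setting in which Angptl8 is usually induced, were lower in 12 of 13 tested cases, with 0 higher and 1 not past the threshold (median log2 difference -1.81). Thrsp, a lipogenic nuclear protein gene, averaged 95.6 ± 55.5 TPM in SAP and 1310 ± 480 TPM in controls (SD, n = 6 each; log2 change -3.91, limma adjusted p = 8.36e-06). Fasn, fatty acid synthase, fell by 2.56 and Scd1, a fatty acid desaturase, by 2.51. Mlxipl, which encodes the sugar sensor ChREBP, fell by 1.91.

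**Figure D3:**
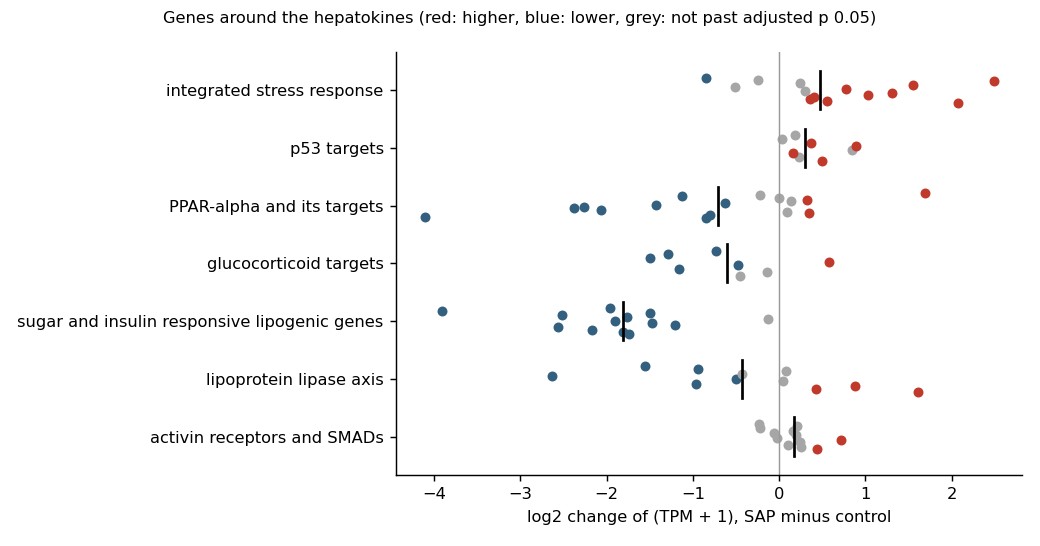
Log2 change of TPM + 1, SAP minus control, for each tested gene of 7 lists around the hepatokines, 1 point per gene, red where higher, blue where lower and grey where not past an adjusted p of 0.05, with black bars at list medians. The stress response list lies mostly to the right (median 0.48) and the lipogenic list to the left (median -1.81).

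Angptl6, which encodes a circulating factor that raises energy expenditure in mice, was between 3.65 and 6.78 TPM in SAP, with a median of 4.34, against 7.74 to 10.4 TPM in controls, with a median of 9.45. All 6 SAP values lay below the lowest control. The log2 change was -0.83 ± 0.13 (SE, 95% interval -1.11 to -0.55; limma adjusted p = 1.64e-04). In GENCODE M21, 265 of the 1582 exon bases of Angptl6 (16.8%) are shared with A230050P20Rik on the opposite strand, and reads there cannot be assigned without strand. Among 7 other angiopoietin-like and angiopoietin genes and receptors 3 were tested, of which 0 were higher, 1 lower (Angptl2, -0.75) and 2 not past the threshold, and the 4 others reached at most 0.57 TPM.

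Gdf15 was between 2.35 and 3.69 TPM in SAP, with a median of 3.21, against 3.90 to 7.19 TPM in controls, with a median of 4.89. All 6 SAP values lay below the lowest control, by a narrow margin, and control 8 was the highest. The log2 change was -0.57 ± 0.12 (SE, 95% interval -0.83 to -0.30; limma adjusted p = 0.00210). The call was lost with TPM rescaled without the acute-phase genes (-0.27, limma adjusted p = 0.0960) and in the high Xist libraries alone (-0.43, adjusted p = 0.105). The rescaling moved the median of all genes by 0.33, to 0.30, and relative to that median Gdf15 was at -0.57. Of 8 listed p53 targets, which like Gdf15 answer DNA damage, 4 were higher, 0 lower and 4 not past the threshold. The 3 largest changes past it were those of Gadd45a (0.89), Bax (0.49) and Mdm2 (0.37). With rescaling 7 were higher, beside 6106 of 11643 among all genes. The receptor gene Gfral was listed at 0 in every library, and its partner Ret reached at most 0.04 TPM.

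Lect2, a chemotactic factor secreted by hepatocytes, had the highest level of the 9 genes in both groups. It was between 328 and 522 TPM in SAP, with a median of 399, against 357 to 491 TPM in controls, with a median of 428. The SAP range enclosed the control range. The log2 difference was -0.10 ± 0.12 (SE, 95% interval -0.36 to 0.16; limma adjusted p = 0.524). With TPM rescaled to a common total without the acute-phase genes it was 0.28 (adjusted p = 0.0288). That scaling moved the median of all genes by 0.33, to 0.30, and relative to that median the difference was -0.02. Among genes listed around its receptors, Met was higher (0.51, limma adjusted p = 0.00324), and Tek (0.17) and Tie1 (0.16) were not past the threshold. Cd209a reached at most 0.36 TPM. With rescaling all 3 tested were higher, beside 6106 of 11643 among all genes.

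Inhbe had the largest increase of the 9 genes on log2(TPM + 1); by the ratio of mean TPM, SAP over control, Fst was higher (4.12 against 2.53 for Inhbe). It was between 28.1 and 44.0 TPM in SAP, with a median of 34.9, against 8.72 to 20.35 TPM in controls, with a median of 14.4. All 6 SAP values lay above the highest control. The log2 change was 1.31 ± 0.17 (SE, 95% interval 0.94 to 1.67; limma adjusted p = 3.83e-05). SAP 10 and SAP 12, the SAP libraries high in Xist, held the highest values (44.0 and 43.1 TPM), and control 5, the control low in Xist, the lowest.

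Inhba was between 1.01 and 2.75 TPM in SAP, with a median of 2.25, against 0.73 to 1.45 TPM in controls, with a median of 1.14. SAP 14 (1.01 TPM) lay within the control range and the other 5 SAP libraries above it. The log2 change was 0.51 ± 0.15 (SE, 95% interval 0.19 to 0.83; limma adjusted p = 0.0132). Of the other subunits, Inhbc, like Inhbe a hepatocyte gene, averaged 73.2 ± 9.65 TPM in SAP and 38.1 ± 5.32 TPM in controls (SD, n = 6 each; log2 change 0.92, adjusted p = 1.27e-05). Inhbb was below the filter, at 0.46 to 2.15 TPM in SAP and 0.14 to 0.58 TPM in controls, and Inha, the inhibin alpha subunit, reached at most 0.04 TPM.

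The subunit transcripts together came to 113 ± 15.6 TPM in SAP and 53.8 ± 8.69 TPM in controls (SD, n = 6 each), with no overlap (exact two-sided permutation test, p = 0.00216, which no arrangement can go below; adjusted p = 0.00649). Inhbc made up 65.1% of them in SAP and 71.1% in controls, and Inhba 1.80% in SAP and 2.09% in controls. The share of Inhbe was 32.1 ± 2.60% in SAP and 26.2 ± 4.10% in controls (exact permutation test, adjusted p = 0.0292), with overlapping ranges of 29.1 to 35.1% in SAP and 20.5 to 30.5% in controls. That difference missed the threshold without SAP 13, SAP 14 or control 5 (adjusted p between 0.0519 and 0.0584).

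**Figure D4:**
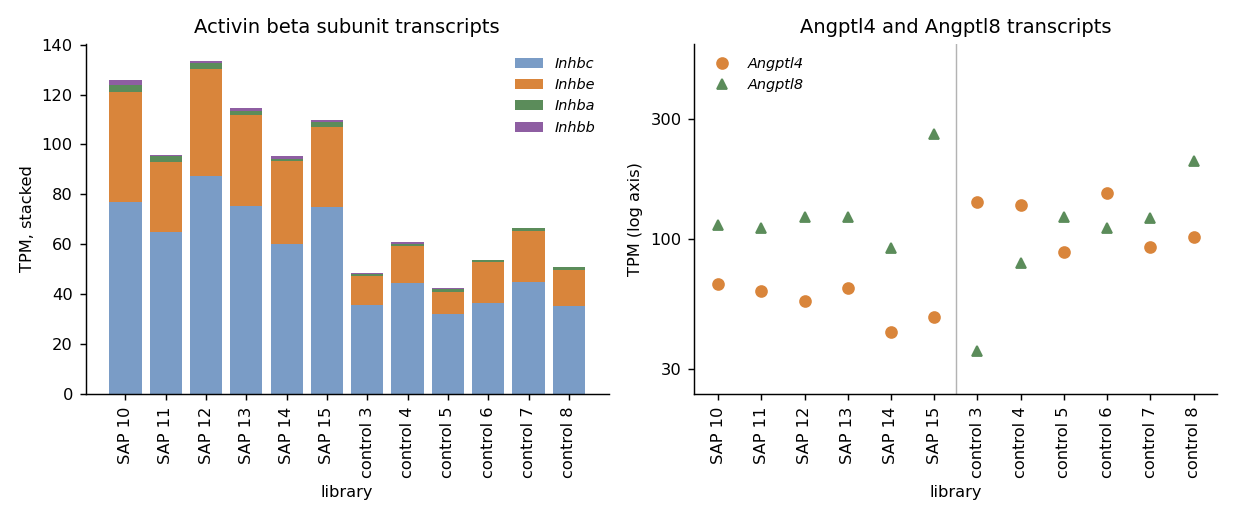
Left, stacked TPM of the 4 inhibin beta subunit genes in each library; right, TPM of Angptl4 and Angptl8 in each library on a log axis, with SAP libraries left of the line. Subunit totals are 95.2 to 134 TPM in SAP and 42.6 to 66.7 TPM in controls, and Angptl8 is above Angptl4 in all 6 SAP libraries and in 3 of 6 controls.

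Fst was the least abundant member, between 0.33 and 1.73 TPM in SAP, with a median of 0.69, against 0.06 to 0.39 TPM in controls, with a median of 0.19. SAP 12 and SAP 13, at 0.34 and 0.33 TPM, lay within the control range, and the other 4 SAP libraries lay above it. In the fit with no filter, which called 19.8% of 25185 genes, 8.84% higher and 11.0% lower, the log2 change was 0.56 ± 0.16 (SE, 95% interval 0.21 to 0.91; limma adjusted p = 0.0289). The call was lost without SAP 11, control 3, control 4, control 7 or control 8 (adjusted p between 0.0504 and 0.0631), and when the Xist split entered the fit (0.0531). The size of this change depends on the pseudocount: with 0.1 in place of 1 it was 1.503 (adjusted p = 0.0152). The log2 ratio of Fst to the summed beta subunits was -6.00 ± 0.47 in SAP and -5.50 ± 0.28 in controls on TPM + 1 (SD over 6 libraries a group; adjusted p = 0.0498, exact permutation test), but with a pseudocount of 0.1 the difference had the opposite sign (0.44, adjusted p = 0.342), so no direction is given for it.

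Of the other activin binding proteins, 2 of 6 were tested, and neither Fstl1 (-0.25) nor Tgfbr3 (0.12) was past the threshold. Among 12 tested activin receptor and SMAD pathway genes 2 were higher, 0 lower and 10 not past the threshold. Skil, a SMAD corepressor that the pathway induces, averaged 2.62 ± 0.785 TPM in SAP and 1.17 ± 0.182 TPM in controls (SD, n = 6 each; log2 change 0.72, limma adjusted p = 4.50e-04), and the receptor gene Acvr1 rose by 0.44. The count of higher genes was 4 to 9 under other scalings, 4 without SAP 14 and 0 with a mean of at least 5 TPM as the filter. The 9 came from rescaling without the acute-phase genes, which called 6106 of 11643 genes higher. Inhba and Fst are also expressed by stellate and endothelial cells. Stellate cell markers summed to 131 to 166 TPM in SAP and 122 to 149 TPM in controls (7 of 10 tested higher, 1 lower; 4 higher without SAP 10, control 6 or control 7), sinusoidal endothelial markers to 118 to 171 TPM in SAP and 107 to 147 TPM in controls (3 of 8 higher), Kupffer cell markers to 176 to 391 TPM in SAP and 194 to 297 TPM in controls (1 of 8 higher, 3 lower; 0 lower when the Xist split entered the fit, in the high Xist libraries alone or when rescaled), and monocyte markers to 606 to 857 TPM in SAP and 338 to 394 TPM in controls (4 of 4 tested higher). Most of the monocyte sum was Fn1, a gene that hepatocytes also express strongly (652 ± 85.6 TPM in SAP and 346 ± 22.4 TPM in controls), and of the others Plac8 averaged 38.7 TPM in SAP and 10.7 TPM in controls and Itgam 3.98 TPM in SAP and 0.228 TPM in controls. Itgam reached at most 0.52 TPM in controls and passed the filter only through the SAP libraries. The monocyte markers Ccr2, Ly6c2, Chil3 and F13a1 were below the filter and not tested. The higher Kupffer cell marker was Marco (44.9 TPM in SAP and 0.975 TPM in controls), and the lower ones were Clec4f (-0.69), Timd4 (-0.59) and Vsig4 (-0.72). Most of the stellate cell sum was Dcn (101 TPM in SAP and 85.9 TPM in controls). The lower stellate cell marker was Reln (-1.22, limma adjusted p = 2.50e-04), the largest change of that list. Lrat (0.23) and Pdgfrb (0.15) were not past the threshold. The part of these cell types in the Inhba and Fst values was not tested.

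Within the high Xist libraries (2 SAP, 5 controls) Inhbe was at 43.1 and 44.0 TPM in SAP and 11.5 to 20.35 TPM in controls, Fgf21 at 7.46 and 15.65 TPM in SAP and 2.96 to 6.63 TPM in controls, and Inhba at 2.34 and 2.75 TPM in SAP and 0.73 to 1.21 TPM in controls. Angptl4 was at 56.3 and 66.1 TPM in SAP and 92.5 to 153 TPM in controls, Angptl6 at 4.41 and 6.78 TPM in SAP and 7.74 to 10.4 TPM in controls, and Gdf15 at 3.27 and 3.69 TPM in SAP and 3.90 to 7.19 TPM in controls. The ranges of these 6 genes were separate in those 7 libraries, which leave out the 4 other SAP libraries; over all 12, Fgf21 and Inhba overlapped. Among the 5 libraries low in Xist, control 5 is the sole control. There the SAP values of Inhbe and Fgf21 lay above control 5 and those of Angptl4, Angptl6 and Gdf15 below it, while Inhba, at 1.01 to 2.40 TPM in SAP and 1.45 TPM in control 5, lay on both sides.

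The order of the members by level differed little between the groups. After Lect2, Angptl8 and Angptl4 followed, with means of 137 and 56.4 TPM and separate ranges in SAP, and means of 112 and 118 TPM and overlapping ranges in controls. Inhbe came next at 36.2 TPM in SAP and 14.3 TPM in controls. In SAP it was followed by Fgf21 (8.60 TPM), Angptl6 (4.92 TPM), Gdf15 (3.12 TPM), Inhba (2.03 TPM) and Fst (0.817 TPM), and in controls by Angptl6 (9.36 TPM), Gdf15 (5.13 TPM), Fgf21 (4.32 TPM), Inhba (1.10 TPM) and Fst (0.198 TPM). Neighbours from Fgf21 to Fst overlapped in SAP, as did Inhbe with Angptl6 and Gdf15 with Fgf21 in controls. Relative spread between libraries (SD as a percentage of the mean) was 48.1% in SAP and 40.0% in controls for Fgf21, 45.2% in SAP and 49.8% in controls for Angptl8, and 65.3% in SAP and 54.9% in controls for Fst. It was lowest for Gdf15 and Angptl4 in SAP (16.6% each) and for Angptl6 in controls (9.62%).

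Among 17 other secreted hepatokine and related genes tested, 5 were higher, 9 lower and 3 not past the threshold (median log2 difference -0.31). Lepr, the leptin receptor gene, averaged 11.2 ± 4.28 TPM in SAP and 1.11 ± 0.366 TPM in controls (SD, n = 6 each; log2 change 2.45, limma adjusted p = 3.04e-06). Fgl1, a fibrinogen-like hepatokine, rose by 2.37 and Itih3, an inter-alpha-trypsin inhibitor chain, by 1.51. Igf1 (-0.70), Selenop (-0.64), a selenium carrier, and Ghr (-1.04), the growth hormone receptor, were lower. With rescaling 8 of the 17 were higher, beside 6106 of 11643 among all genes. Glucocorticoid targets, which follow stress hormones, were lower in 5 of 8 tested cases, with 1 higher and 2 not past the threshold, led by Tat (-1.49), Tsc22d3 (-1.29) and Igfbp1 (-1.17). The count of lower genes was 3 without control 3, with TMM-like scaling, with rescaling and with no filter. Igfbp1 missed the threshold in 16 of the alternatives and passed it in 7.

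For each tested member the 3 genes with the most similar pattern across libraries were taken, after removal of group means, by Pearson correlation over the 12 libraries among 7373 genes with a mean of at least 5 TPM. For Inhbe these were Setd2 (r = 0.92), Kdm5c (0.92) and Garem1 (0.91), and for Fgf21 they were Dpp9 (0.85), Slc39a14 (0.84) and Trim3 (0.83). Angptl4 was most like Lyplal1 (0.90), Arrdc2 (0.89) and Lrrfip1 (0.87), and Lect2 most like Ces3a (0.93), Selenbp2 (0.90) and Enho (0.88). With 12 libraries and so many candidates, values of this size are a description only.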

How the data were processed

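Liver RNA of 6 SAP and 6 control mice was read from 1 deposited table of 55487 rows, with groups and library numbers taken from the sample titles; 120 rows repeat a symbol, and such a symbol was given to its row of highest median. The deposited values were taken to be TPM, since no header or label names a unit but each library summed to between 993412 and 995793. The authors' use of edgeR is named in the submitters' processing notes without version or role, and for aligner, build, annotation and strand the sources used here give nothing. No depth can be recovered from TPM, so no counting interval was computed. Nothing in the labels ties each library to its own animal, and p-values reflect only how these samples vary, which may be technical.

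limma 3.58.1 (R 4.3.3) with a trend was fitted to log2(TPM + 1) for genes reaching 1 TPM in 6 or more of 12 libraries, with Benjamini-Hochberg adjustment at 0.05. Log2 changes are SAP minus control on that scale and understate the change of low genes. The pipeline was tested on simulated data. Within-library quantities had exact two-sided permutation tests (scipy 1.17.1), adjusted over 6 quantities, of which 4 are given; some results are not reported here. Figures were drawn with matplotlib 3.10.9. The 9 members, the lists, the motifs and the Xist split at 30 TPM were chosen with earlier results of these data known. Named genes were the members, up to 3 genes per list with the largest change past the threshold, and the 3 most alike genes per member; other list genes are examples chosen after their values were seen. Alternatives were TMM-like scaling (trimming 30% of ratios and 5% of levels), quantile normalization, rescaling without the acute-phase genes, a pseudocount of 0.1, a mean of at least 5 TPM as the filter, no filter at all, no trend, a robust fit, the Xist split, and leaving out libraries.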

Additional observations from a re-analysis of the deposited data

Results flagged for a closer look

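In 26 groups of 6 values tested for a value far from its neighbours by Dixon's criterion, 2 stood out, where chance alone gives about 1 in 20. Angptl8 was at 261 TPM in SAP 15, while the other 5 SAP libraries held 91.7 to 122 TPM. Without SAP 15 the Angptl8 log2 difference was 0.17 (limma adjusted p = 0.719). The log2 ratio of Angptl4 to Angptl8 was -2.41 in SAP 15, compared with -1.10 to -0.77 among the other 5 SAP libraries; both rest on the same Angptl8 value.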

How the results depend on the processing

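The changes of Inhbe, Inhba, Angptl4 and Angptl6 kept their direction and stayed past the threshold in every alternative that tested them, and Angptl8 stayed short of it. Lect2 turned from a lower to a higher value with quantile normalization (0.16, adjusted p = 0.235) and with rescaling without the acute-phase genes (0.28, adjusted p = 0.0288). That rescaling raised the values of all genes by construction, with 6106 of 11643 genes higher and 1286 lower. It gave Gdf15 -0.27, which was -0.57 relative to the median of all genes. With no filter Fgf21 kept 0.81 but missed the threshold among more genes. With the Xist split as a term Fst changed by 0.61. In the high Xist libraries alone 1847 genes were lower, Gdf15 changed by -0.43 and Fst by 0.68. The within-library differences there were 73.7 TPM for the subunit total, 6.23 percentage points for the Inhbe share, and -0.52 and -1.29 for the log2 ratios of Fst to beta subunits and of Angptl4 to Angptl8; with 2 against 5 libraries the smallest possible p is 0.0952, so no call could be made. Without SAP 14 and control 5, Fgf21 changed by 0.61 and Fst by 0.57, the Inhbe share by 4.12 percentage points and those ratios by -0.47 and -1.56, all short of the threshold. With a pseudocount of 0.1 the ratio of Fst to beta subunits changed sign (0.44). Leaving out each library gave 0.63 to 0.96 for Fgf21, 0.43 to 0.64 for Fst, 4.72 to 6.74 percentage points for the Inhbe share and -0.59 to -0.37 for Fst to beta subunits. Beyond what construction explains, the cause was not tested. Of 50 other named genes, 1075 of 1107 values under alternatives kept direction and call, 32 missed the threshold and 0 reversed. No paired analysis was possible because SAP and control libraries share no replicate numbers. Depth is unknown, so values of Fst and Inhba near 1 TPM have an unknown counting error.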

Other observations

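Some values moved together within the SAP group, in genes picked after their values were seen. SAP 10 and SAP 14, the libraries highest in Fgf21 (15.65 and 11.2 TPM, while the other 4 SAP libraries held 4.41 to 7.46 TPM), were also highest in Ddit3 (27.2 and 36.1 TPM, against 12.05 to 22.2 TPM) and in Asns (8.63 and 9.61 TPM, against 1.89 to 7.86 TPM). Psat1 and Trib3, of the same stress response, did not follow that order: Psat1 was highest in SAP 11 (8.79 TPM; SAP 10 at 6.72 and SAP 14 at 7.64 TPM), and Trib3 was highest in SAP 14 (6.03 TPM) but lower in SAP 10 (3.00 TPM) than in SAP 12 (3.41 TPM). Klb was lowest in SAP 14 (2.92 TPM), while SAP 10 (6.07 TPM) lay among the other 4 (5.85 to 9.57 TPM). SAP 10 is high and SAP 14 low in Xist. With 6 libraries no relation was tested.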
